A study of Mus musculus with 9 samples.

Results

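Islet endocrine cells keep insulin and the other peptide hormones in dense-core granules that wait near the plasma membrane until calcium triggers their release. The genes described here encode the machinery of that release, from the Rab proteins that bring granules to the membrane to the SNARE proteins that fuse them. They were chosen by gene symbol: 48 symbols were listed and 47 were rows of the islet count table, which holds 23329 genes. Stxbp3 was absent under that symbol and was dropped. Of the 47, 40 passed the filter on low counts and were tested among 12402 genes in all.

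The libraries were made from polyA RNA of pancreatic islets of male mice, with 4 libraries labelled control and 5 labelled mutant. Pdx1 encodes a homeodomain transcription factor needed for pancreas formation and for the mature beta cell. The control genotype was labelled Pdx1+/-, so the controls carry 1 altered Pdx1 allele and are not wild type, and the mutant genotype was labelled Pdx1A4, a name the labels do not explain. Strain, age, the number of mice behind a library and whether islets of several mice were pooled were not given in the sources used here, and the labels' protocol covers islets cultured in RPMI medium with serum. The p-values below thus rest on library-to-library spread alone, part of which may be technical.

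Exocytosis proceeds in steps that named protein families carry out. Rab3 and Rab27 GTPases and their effectors tether granules, Munc13, CAPS and RIM proteins prime them, and synaptotagmins sense calcium. The membrane SNAREs (a syntaxin with SNAP25 or a relative) then zip with a vesicle SNARE (a VAMP) under the guidance of a Munc18 protein, and NSF with its SNAP adaptors takes the spent complex apart. Endocrine cells and neurons share one set of paralogs for these steps, including SNAP25, VAMP2, Munc13-1, RAB3A and RAB27A. Exocrine acinar cells, which surround the islets and release digestive enzymes from zymogen granules, are known for others, including SNAP23, syntaxins 2, 3 and 4, VAMP8, Munc18-2, RAB3D and RAB27B, and a list of 9 such genes (Stxbp3 among them) is called the zymogen granule list below.

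Levels of endocrine and acinar marker genes differed between the groups, and these values stand beside the results below. Total counts were 6092010 to 7375376 in controls and 7186462 to 9163253 in mutants. A list of 7 islet hormone genes (those of insulin, amylin, glucagon, somatostatin, pancreatic polypeptide and peptide YY) made up 16.9% to 21.0% of counts in controls and 0.0691% to 7.99% in mutants, with mutants 2 (0.0691%) and 3 (1.21%) far below the other mutants (4.70% to 7.99%). A list of 24 acinar genes made up 1.93% to 3.06% in controls and 9.20% to 22.0% in mutants, and 23 of its 24 genes rose. The endocrine markers, including hormones, chromogranins and Isl1, were present in every control, so the labelled tissue was seen there, whereas in mutant 2 the summed level of 16 endocrine genes (Chga, Scg2, Pcsk2, Neurod1 and others, called the endocrine reference list) was 191 CPM (counts relative to the scaled library size) against 21822 to 27829 in controls. Of those 16 genes, 2 fell, and 15 were lower in every mutant than in every control. In bulk libraries, fewer endocrine cells and less RNA per endocrine cell cannot be told apart. Counts of genes that fell or rose in the whole machinery are given with and without mutants 2 and 3. Paralog ratios are given for all libraries and without 1 library at a time.

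Across the tested machinery, 14 genes fell in the mutant libraries, 4 rose and 22 did not pass the threshold, an adjusted p of 0.05 in edgeR's quasi-likelihood test with Benjamini-Hochberg adjustment over all 12402 genes. The genes that fell were Vamp2, Syt5, Syt11, Unc13a, Bsn, Pclo, Rab3b, Rab3c, Rab27a, Rph3al, Exph5, Ptprn2, Syp and Nsf, and the genes that rose were Snap29, Stxbp2, Unc13b and Rab27b. As shares of the 40 tested, 35.0% fell and 10.0% rose, beside 11.8% and 20.6% of all genes tested. The median log2 fold change (mutant over control) was -1.51 for the 40 genes and 0.04 for all genes tested. For 21 of the 40, every mutant library was below every control library, against 14.7% of all genes, and for 4 every mutant was above every control, against 18.5% of all genes. Without mutants 2 and 3, 21 fell and 3 rose, with 9.78% and 10.8% of all genes as background; 12 of the 14 remained, while Bsn (adjusted p = 0.0503) and Nsf (0.0983), with Snap29 (0.102) among the risers, no longer passed. DESeq2 called 25 lower and 3 higher, beside 20.8% and 20.5% of all genes, and 14 of the 25 were the same genes. Of all calls, 63.6% were higher in the main test, 51.8% with DESeq2's scaling in edgeR, 49.6% in DESeq2 itself and 52.4% without mutants 2 and 3; that scaling moves the median of all genes by -0.10 on the log2 scale.

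**Figure D1:**
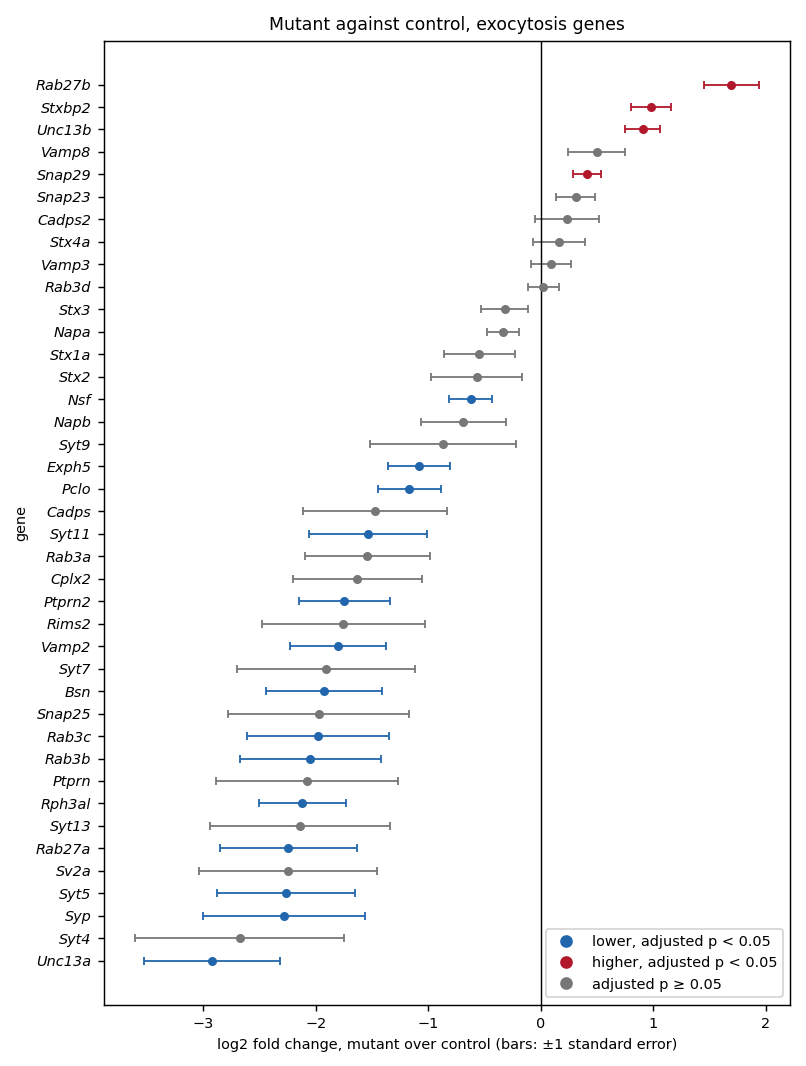
Log2 fold change, mutant over control, of the 40 tested genes of the exocytosis machinery, with bars of 1 SE from edgeR (4 control and 5 mutant libraries). Rab27b (1.69), Stxbp2 (0.98) and Unc13b (0.91) lie farthest right and Unc13a (-2.92) farthest left, while Rab3d (0.02) sits at zero.

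Among the target SNAREs, which sit in the plasma membrane, 1 of 7 rose and none fell. Snap25, the SNAP25 protein of neurons and endocrine cells, was at 257, 313, 208 and 202 CPM in controls 1 to 4 and at 144, 1.62, 22.6, 75.3 and 68.0 CPM in mutants 1 to 5. Every mutant was below every control, with mutant 2 far below the rest, and the log2 fold change of -1.97 (SE 0.80) did not pass (adjusted p = 0.0818). Without mutants 2 and 3 it was -1.40 and passed (adjusted p = 0.0144), and DESeq2 on all 9 libraries gave adjusted p = 0.0211. Snap23, its widely expressed relative, was at 50.2, 79.3, 65.6 and 46.7 CPM in controls and 69.9, 76.0, 73.9, 87.5 and 67.3 CPM in mutants. The groups overlapped, and the log2 fold change of 0.31 (SE 0.18) did not pass (adjusted p = 0.193). Snap29, a member of the same family that serves several internal membranes, was at 27.3, 25.2, 24.5 and 25.1 CPM in controls and 37.3, 31.0, 32.8, 38.9 and 29.7 CPM in mutants, with no overlap. It rose by 0.41 (SE 0.13, adjusted p = 0.0343), a call lost in 8 of the 9 fits that leave out 1 library, all but the one without mutant 5 (adjusted p up to 0.116), and in DESeq2 (adjusted p = 0.0815).

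None of the 4 syntaxins passed the test, and their log2 fold changes were small beside that of Snap25. Stx1a, the syntaxin of regulated release in neurons and beta cells, was at 4.51, 4.54, 3.63 and 5.14 CPM in controls and 4.60, 2.56, 1.82, 3.80 and 2.41 CPM in mutants, and its log2 fold change of -0.55 (SE 0.32) did not pass (adjusted p = 0.198). Stx3 was at 51.8, 92.2, 49.4 and 48.8 CPM in controls, with control 2 highest, and at 53.0, 41.9, 45.1, 49.2 and 53.0 CPM in mutants. The Stx3 groups overlapped (log2 fold change -0.32, SE 0.21, adjusted p = 0.245). Stx2 (-0.57, SE 0.40) and Stx4a (0.16, SE 0.23) did not pass either, and no syntaxin passed in any fit that left out 1 library.

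One of the 3 vesicle SNAREs fell. Vamp2, the VAMP of synaptic vesicles and insulin granules, was at 80.7, 61.0, 57.2 and 72.8 CPM in controls and 34.0, 5.26, 12.4, 19.3 and 26.0 CPM in mutants. Every mutant was below every control, mutant 2 lowest, and the gene fell by 1.80 (SE 0.42, adjusted p = 0.0124), a call that also passed in each fit without 1 library. Vamp8, the VAMP of zymogen granules, was at 110, 223, 178 and 119 CPM in controls and 155, 269, 285, 208 and 195 CPM in mutants, and Vamp3, the VAMP of recycling endosomes, at 61.9, 66.3, 73.1 and 68.0 and 80.5, 53.4, 57.6, 93.2 and 74.7 CPM. Both overlapped between groups, with log2 fold changes of 0.50 (SE 0.26) for Vamp8 and 0.09 (SE 0.18) for Vamp3, which is -0.01 under DESeq2's scaling.

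Stxbp2, which encodes Munc18-2, the Munc18 protein of epithelial and blood cell secretion, was the only Munc18 gene of the list that could be tested. It was at 66.8, 53.4, 78.2 and 68.5 CPM in controls and 95.8, 156, 145, 142 and 121 CPM in mutants. All 5 mutants were above all 4 controls, with mutants 2, 3 and 4 highest, and the gene rose by 0.98 (SE 0.18, adjusted p = 0.00474), also in each fit without 1 library and without mutants 2 and 3 (0.78, adjusted p = 0.0267). A row named Stxbp3a, an older symbol that RefSeq lists for both Stxbp3 and Nsfl1c and which was therefore not counted, was at 61.9 ± 16.4 CPM in controls and 74.1 ± 11 CPM in mutants (SD, n = 4 and 5; adjusted p = 0.308).

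Of the 6 calcium sensors tested, all synaptotagmins, 2 fell and none rose, with a median log2 fold change of -2.03. Syt5, a granule synaptotagmin, was at 103, 82.5, 94.4 and 98.8 CPM in controls and 38.0, 2.02, 7.74, 23.6 and 27.0 CPM in mutants. The groups did not overlap, and Syt5 fell by 2.26 (SE 0.61, adjusted p = 0.0206; 0.0504 without control 1). Syt11, which lacks calcium binding, was at 131, 140, 110 and 120 CPM in controls and 83.3, 6.74, 24.7, 54.9 and 45.9 CPM in mutants, and fell by 1.54 (SE 0.53, adjusted p = 0.0477). That call was lost in 7 of 9 fits without 1 library (adjusted p up to 0.0960), all but those without mutant 1 or 2. Syt4, another form with weak calcium binding, was the most abundant of the 40 per length of transcript in controls, at 591, 1093, 516 and 463 CPM there and 230, 0.944, 42.8, 133 and 113 CPM in mutants. Its groups did not overlap, but its log2 fold change of -2.68 (SE 0.93) just missed the threshold (adjusted p = 0.0503) and passed without mutants 2 and 3 (-2.10, adjusted p = 0.00759). Syt7, the high-affinity calcium sensor of insulin granules, was at 86.5, 134, 56.8 and 78.9 CPM in controls and 59.5, 0.539, 10.3, 22.1 and 25.4 CPM in mutants, with mutant 1 inside the control range, and had a log2 fold change of -1.91 (SE 0.79, adjusted p = 0.0854). Syt13 (-2.14, adjusted p = 0.0635) and Syt9 (-0.87, adjusted p = 0.312) did not pass; Syt13 did without mutants 2 and 3 (-1.56, adjusted p = 0.00489).

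Of the priming and active zone genes, 3 of 7 fell and 1 rose, and the pair of Munc13 paralogs moved in opposite directions. Unc13a encodes Munc13-1, the priming factor of synaptic vesicles and insulin granules, and lies at chr8:71624125-71671774 (mouse build GRCm38). It was at 14.4, 11.4, 9.49 and 13.3 CPM in controls and 2.91, 0, 1.21, 1.90 and 1.87 CPM in mutants. It fell by 2.92 (SE 0.61, adjusted p = 0.00776), the largest drop of the 40, was listed at 0 counts in mutant 2, and passed in each fit without 1 library. Unc13b encodes Munc13-2, found in neurons and in epithelial secretory cells, and lies at chr4:43046193-43264873. It was at 11.9, 11.1, 12.5 and 12.3 CPM in controls and 17.7, 23.2, 25.5, 21.1 and 24.9 CPM in mutants. Its controls lie within a narrow band that no mutant reaches, and it rose by 0.91 (SE 0.15, adjusted p = 0.00384), again in each fit without 1 library. Per kilobase of exon, Unc13a was 1.30 to 2.05 times Unc13b in controls and 0.0192 to 0.301 times in mutants. These ratios use a prior count of 2. Unc13a had 0 counts in mutant 2, so the lowest ratio depends on that prior count.

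Since these paralogs moved apart, a promoter sequence of each is shown from RefSeq (GRCm38.p6): the 250 bases before 1 annotated transcript start per gene. For both genes that start lies inside the gene span given above, not at its outermost base. For Unc13b, sequence at the outermost start is not shown. Capitals mark the GC box GGGCGG and the E-box letters CACGTG and CAGGTG, on either strand.
Unc13a (chr8:71671758-71672007, minus strand): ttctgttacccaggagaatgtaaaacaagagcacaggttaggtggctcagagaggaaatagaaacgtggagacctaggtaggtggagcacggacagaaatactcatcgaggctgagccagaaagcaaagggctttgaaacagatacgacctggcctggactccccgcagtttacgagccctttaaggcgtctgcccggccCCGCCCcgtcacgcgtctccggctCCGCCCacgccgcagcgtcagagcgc
Unc13b (chr4:43058703-43058952, plus strand): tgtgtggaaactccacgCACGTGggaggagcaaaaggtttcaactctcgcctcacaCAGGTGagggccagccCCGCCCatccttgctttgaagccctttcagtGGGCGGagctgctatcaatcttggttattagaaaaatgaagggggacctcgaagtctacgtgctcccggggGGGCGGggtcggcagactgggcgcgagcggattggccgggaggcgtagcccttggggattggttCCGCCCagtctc
In these windows, 2 matches were marked in Unc13a and 6 in Unc13b. GGGCGG stood in 63.4% of the machinery's 41 windows of 300 bases (36 of 47 genes had one) and in 35.7% of all 32851 windows; CACGTG stood in 14.6% and 7.15%, and CAGGTG in 24.4% and 20.2%. The search covered both strands and further letters: the homeodomain core TAATTA, a second homeodomain form with CTAATG, the octamer ATTTGCAT, another E-box written CAGATG, the cAMP response element TGACGTCA, its shorter form as TGACGC, and the TATA box TATAAA. These motifs were chosen after the values were seen. The homeodomain core stood in 0% of the machinery's windows against 5.29% of all windows, and the octamer in 0% against 1.74%. With 41 windows, a count of 0 against such shares says little. The other E-box stood in 9.76% against 17.2%, and the last motif named in 7.32% against 13.6%. The second homeodomain form stood in 9.76% against 7.36%. The cAMP response element stood in 2.44% against 1.79%, and its shorter form in 17.1% against 7.4%. Of the machinery, 2 windows, those of Unc13a and Ptprn2, held TTCAGCACC together with GGACAGC, the letters of the left and right parts of the RE1 element, to which the repressor REST binds and which is known from neuronal and islet genes. Such windows numbered 14 of 32851 (0.0426%), and TTCAGCACC alone, which contains CAGCACC, stood in 0.371%. The stretches are shown with both parts in capitals, which appear here as the reverse complement of the letters searched.
Unc13a (chr8:71671724-71671753, minus strand, bases 5 to 34 after the start): ggcGCTGTCCgcgcccccGGTGCTGAAgcg
Ptprn2 (chr12:116485719-116485748, plus strand, 1 base before the start to base 29): cggtggcGCTGTCCGGTGCTGAAgctcggc
Between the parts lie 8 bases in Unc13a and 0 in Ptprn2. The search set no distance or order between the parts, so neither stretch is shown to be an RE1 element. Both genes fell, but so did 12 of the 36 machinery genes with a window when these are counted in. The RE1 letters belonged to the same search, whose motifs were chosen after the values were seen. A match describes letters only.

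Pclo, which encodes the active zone scaffold piccolo, was at 45.8, 65.6, 24.6 and 29.6 CPM in controls and 17.4, 17.9, 15.2, 17.1 and 24.2 CPM in mutants. Every mutant was below every control, with mutants 1 to 4 between 15.2 and 17.9, and the gene fell by 1.17 (SE 0.28, adjusted p = 0.0131), also in each fit without 1 library. Bassoon (Bsn), its partner scaffold, fell by 1.93 (SE 0.52, adjusted p = 0.0200; 0.0669 without control 1) from 2.40 ± 0.774 to 0.607 ± 0.420 CPM (SD, n = 4 and 5). Rims2, the RIM scaffold of beta cells (-1.76, adjusted p = 0.0851), and the CAPS genes Cadps (-1.47, adjusted p = 0.100) and Cadps2 (0.23, adjusted p = 0.546) did not pass. Rims2 passed without mutants 2 and 3 (-1.19, adjusted p = 0.0183).

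The Rab group held the most calls: 5 of 8 fell and 1 rose. Rab27a, the GTPase that docks insulin granules, lies at chr9:73044810-73097623 and was at 347, 540, 240 and 260 CPM in controls and 143, 11.7, 28.5, 102 and 79.6 CPM in mutants. Every mutant was below every control, and it fell by 2.24 (SE 0.61, adjusted p = 0.0210), also in each fit without 1 library. Rab27b, its close relative of zymogen granules and many other secretory cells, was at 19.1, 35.6, 44.9 and 28.7 CPM in controls and 120, 115, 115, 84.7 and 84.8 CPM in mutants. Every mutant was above every control, and the gene rose by 1.69 (SE 0.25, adjusted p = 0.00246), the largest rise of the 40. Its mutants ranged from 84.7 to 120 CPM, with mutants 2 and 3 (both 115) inside that range.

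Rab3a, the Rab3 form of insulin granules, was at 123, 91.2, 93.1 and 96.3 CPM in controls and 62.4, 4.99, 15.5, 44.0 and 46.3 CPM in mutants, with no overlap, but its log2 fold change of -1.54 (SE 0.55) missed the threshold (adjusted p = 0.0564) and passed without mutants 2 and 3 (-1.04, adjusted p = 0.0117). Rab3d, the Rab3 form of zymogen granules, was at 74.0, 56.8, 57.2 and 65.8 CPM in controls and 55.2, 69.7, 60.8, 68.2 and 68.2 CPM in mutants. The groups overlapped, and the log2 fold change of 0.02 (SE 0.14) turned to -0.08 under DESeq2's scaling. Rab3b fell by 2.05 (adjusted p = 0.0321) and Rab3c by 1.98 (adjusted p = 0.0376); Rab3b lost its call in 4 of 9 fits without 1 library (controls 1 and 2, mutants 3 and 5; up to 0.0824) and Rab3c in 7 (all but mutants 1 and 2; up to 0.0865).

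Among Rab effectors, Rph3al (Noc2, which binds Rab3 and Rab27 and is needed for regulated release from endocrine cells) was at 55.6, 42.0, 40.5 and 53.8 CPM in controls and 15.5, 3.50, 6.52, 16.1 and 13.4 CPM in mutants. Every mutant was below every control, and it fell by 2.12 (SE 0.39, adjusted p = 0.00492), also in each fit without 1 library. Exph5, the Rab27 effector Slac2-b, was at 36.0, 46.7, 22.4 and 21.3 CPM in controls and 18.6, 9.57, 13.7, 14.9 and 17.5 CPM in mutants, and fell by 1.08 (SE 0.28, adjusted p = 0.0165; 0.0509 without control 1). The complexin Cplx2, which clamps SNARE complexes, was at 111, 104, 75.8 and 110 CPM in controls and 47.0, 4.72, 11.5, 47.3 and 51.1 CPM in mutants, with no overlap. Its log2 fold change was -1.63 (SE 0.58, adjusted p = 0.0532), and -1.10 without mutants 2 and 3 (adjusted p = 0.00717).

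All 4 granule membrane proteins were lower in every mutant than in every control, and 2 of them fell. Ptprn2 (phogrin), a receptor-type phosphatase-like protein of dense-core granules, was at 55.1, 85.8, 40.1 and 51.6 CPM in controls and 27.1, 5.80, 10.9, 22.7 and 19.8 CPM in mutants, and fell by 1.75 (SE 0.40, adjusted p = 0.0117), also in each fit without 1 library. Ptprn (IA-2), its partner, was at 150, 123, 123 and 137 CPM in controls and 59.7, 0.404, 11.1, 44.3 and 41.9 CPM in mutants. Its log2 fold change of -2.08 (SE 0.81) did not pass (adjusted p = 0.0709) but did without mutants 2 and 3 (-1.51, adjusted p = 0.00343). Syp (synaptophysin, a synaptic-like vesicle protein) was at 60.4, 44.6, 41.3 and 57.1 CPM in controls and 22.9, 0.270, 3.64, 9.51 and 15.7 CPM in mutants, and fell by 2.28 (SE 0.72, adjusted p = 0.0367). Its call was lost in 7 of 9 fits without 1 library, all but those without mutant 1 or 2 (up to 0.0845). Sv2a, a vesicle glycoprotein, was at 16.7, 16, 13.9 and 20.1 CPM in controls and 4.12, 0, 0.455, 4.83 and 8.03 CPM in mutants, with a log2 fold change of -2.25 (SE 0.79, adjusted p = 0.0527; -1.62 and 0.00790 without mutants 2 and 3).

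The genes that disassemble SNARE complexes, which all cells need for membrane traffic, had a median log2 fold change of -0.62, and 1 of 3 fell. Nsf, the ATPase, was at 94.2, 71.3, 86.7 and 86.1 CPM in controls and 72.4, 39.2, 44.6, 62.8 and 55.5 CPM in mutants. It fell by 0.62 (SE 0.19, adjusted p = 0.0325) with overlapping groups, and lost its call in 5 of 9 fits without 1 library (controls 1, 3 and 4, mutants 3 and 5; up to 0.0872). Napa (alpha-SNAP) was at 333, 273, 308 and 297 CPM in controls and 271, 219, 202, 236 and 273 CPM in mutants, with a log2 fold change of -0.33 (adjusted p = 0.0874). Napb (beta-SNAP) was at 7.11, 6.88, 7.26 and 6.93 CPM in controls and 6.30, 2.43, 2.12, 7.46 and 3.48 CPM in mutants (-0.69, SE 0.38, adjusted p = 0.177).

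**Figure D2:**
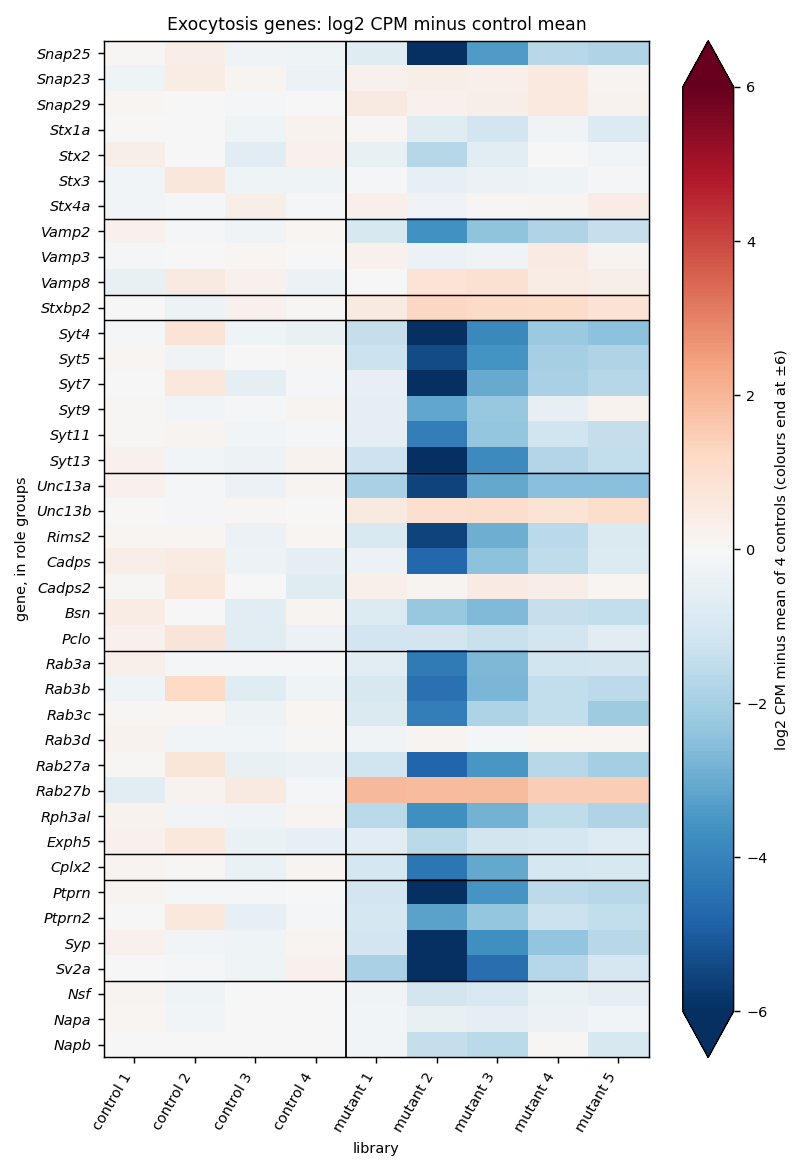
Level of the machinery in each library, by gene, as log2 CPM minus the control mean (4 control and 5 mutant libraries). Mutant 2 is lowest for 27 of the 40 genes tested, while Stxbp2 and Rab27b are above the control mean in all 5 mutants.

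The 7 genes of the list with too few counts to test were Syt1, Doc2b, Unc13d, Rims1, Rims3, Myrip and Cplx1. Cplx1, the other complexin, had 0, 5, 3 and 2 counts in controls and 0 in every mutant.

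The zymogen granule list and the rest of the machinery are given side by side; the difference between them was not tested. Of the 8 zymogen granule genes tested, 2 rose (Stxbp2 and Rab27b) and 0 fell (in edgeR, also at an unadjusted p under 0.05, and in DESeq2), with a median log2 fold change of 0.24. Its share of genes that rose, 25.0%, is near the 20.6% of all genes, and with 8 genes a count of 0 against 11.8% says little. Stx2, of the same list, was lowest in mutant 2 (0.809 CPM, against 1.99 or more in every control). Of the other 32 machinery genes, 14 fell (43.8%) and 2 rose (6.25%), with a median of -1.75. The zymogen granule genes made up 9.54% to 14.6% of the machinery's summed CPM in controls and 23.5%, 61.4%, 52.2%, 32.7% and 30.7% in mutants 1 to 5. The acinar gene list moved with this: its summed level was 15116 to 26435 CPM in controls and 88461 to 271580 in mutants. Its part in the result was not tested.

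**Figure D3:**
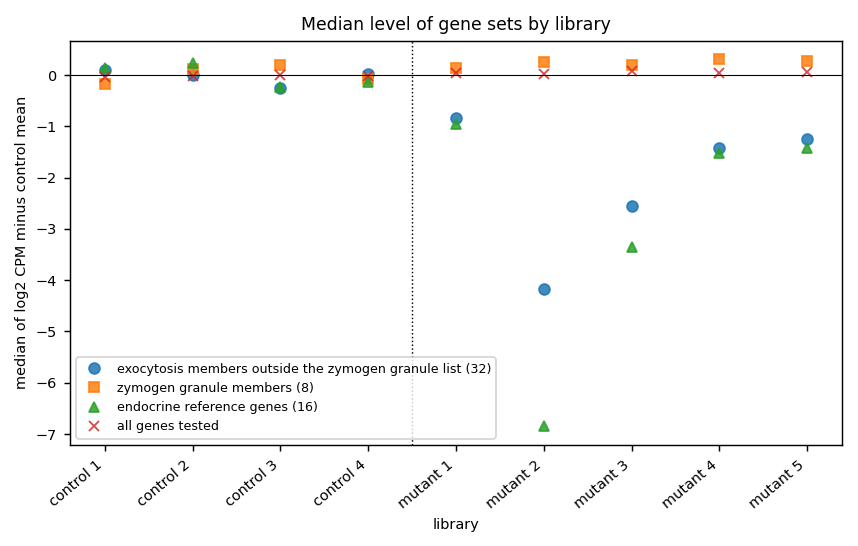
Median log2 CPM minus the control mean, per library, for the zymogen granule genes (8), the other machinery genes (32), the endocrine reference list (16) and all 12402 genes tested. The machinery outside the zymogen granule list is at -0.84, -4.16, -2.56, -1.41 and -1.24 in mutants 1 to 5 and the endocrine reference at -0.95, -6.85, -3.35, -1.51 and -1.42, while all genes stay within 0.03 to 0.07.

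Within a library the ratio of paralogs does not depend on how libraries are scaled, and it was compared for 8 pairs with no test, using a prior count of 2. The log2 ratios are of counts, with no correction for length, which shifts both groups equally and leaves their difference as it is; ratios of levels are given per kilobase of exon. The log2 ratio of Rab27a to Rab27b was 3.41 ± 0.79 in controls and -0.97 ± 1.59 in mutants (SD, n = 4 and 5), a difference of -4.38. Per kilobase, Rab27a was 12.6 to 42.5 times Rab27b in controls and 0.247 to 2.86 times in mutants, so Rab27b was not above Rab27a in every mutant. Unc13a to Unc13b went from 0.01 ± 0.28 to -3.99 ± 1.51, a difference of -4.00. Snap25 to Snap23 differed by -3.26, Vamp2 to Vamp8 by -2.55 and Rab3a to Rab3d by -2.01. In these 5 pairs no mutant overlapped a control, and mutants 2 and 3 were the lowest. Rab27a to Rab27b was at -3.26 and -2.01 in mutants 2 and 3, and at 0.26, 0.27 and -0.09 in mutants 1, 4 and 5. Snap25 to Snap23 was at -5.34 and -1.70, and at 1.04, -0.21 and 0.01. These 2 libraries thus enlarge the differences, which were not computed without both. In Stx1a to Stx3 (-0.30), Syt7 to Syt11 (-0.84) and Ptprn to Ptprn2 (-1.24) the groups overlapped.

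**Figure D4:**
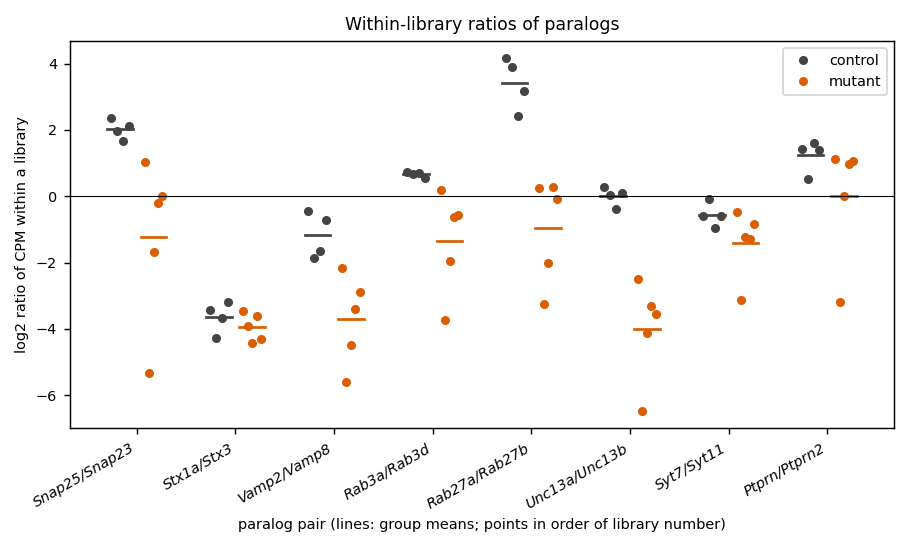
Log2 ratio of 8 paralog pairs in each library, controls (4) and mutants (5), from counts with a prior count of 2 and no correction for length. Rab27a to Rab27b is at 2.41 or more in all controls and at 0.27 or less in all mutants, while Stx1a to Stx3 overlaps.

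The drop was uneven among mutants. Mutant 2 was the lowest of all 9 libraries for 27 of the 40 genes and for 12 of the 14 that fell, mutant 3 for 5 and 2, and mutant 1 was the highest mutant for 12 of the 14. Depth limits these values: 12 of the 40 genes had under 10 counts in mutant 2, 4 of them at 0, and 6 had under 10 in mutant 3. Together the machinery took 0.384% to 0.480% of counts in controls and 0.247%, 0.0967%, 0.115%, 0.165% and 0.203% in mutants 1 to 5. The hormone share, 7.99% in mutant 1 and 0.0691% in mutant 2, had the same lowest and highest libraries. With a hormone score (the mean log2 CPM of 7 hormone genes) as a covariate, 3 genes fell (Vamp2, Syt5 and Rph3al) and 3 rose (Stxbp2, Unc13b and Rab27b), beside 1.36% and 7.15% of all genes. Group explained 40.1% of that score's variance, and 93.0% of the acinar score's. Under the acinar score as covariate, 0 of the 40 genes passed in edgeR, and 0 at an unadjusted p under 0.05. Of all 12402 genes, 0 passed there in either direction. That fit can hardly separate group from acinar score, so its 0 says nothing particular to the machinery.

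Levels were then read against 16 other endocrine genes, after rescaling each library so that their mean log2 level was equal. On that scale 0 of the 40 genes fell in edgeR (0 also at an unadjusted p under 0.05) and 17 rose, beside 0.0968% and 83.8% of all genes, and the median was 1.02 for the machinery and 4.18 for all genes. Genes near the endocrine reference included Snap25 (log2 fold change -0.26, SE 1.27), Rab27a (0.22, SE 1.29), Syt5 (-0.15, SE 1.23) and Syp (-0.58, SE 1.13). Standard errors exceeded 1 for these 4 genes. Without mutants 2 and 3, 2 fell (Unc13a by 1.19, SE 0.37, adjusted p = 0.0104; Syt4 by 0.79, SE 0.30, adjusted p = 0.0297) and 16 rose, beside 0.445% and 72.6% of all genes. With mutants 2 and 3 kept, limma-voom called 4 genes lower. Leaving out control 1, 2, 3 or 4 left 6, 8, 11 or 10 genes higher. Shares of all genes are not given for these further fits, so their counts are not read as particular to the machinery.

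Per kilobase of exon the order of levels in controls was led by Syt4 (171 ± 74.4 CPM per kb), Syt13 (156 ± 30.4), Napa (120 ± 9.84), Snap25 (110 ± 23.2) and Rab27a (109 ± 43.2), neighbours that overlap within their SDs (SD, n = 4). Vamp8 (68.2 ± 22.9) and Rab3a (56.4 ± 8.33) followed. In mutants Vamp8 (96.2 ± 23.3 CPM per kb) and Napa (95.4 ± 12.6) led, with Stxbp2 (45.4 ± 8.19) at rank 3, against rank 13 in controls, and Snap25 (27.9 ± 24.7) at rank 6 (SD, n = 5). The mutant SD of Snap25 nearly equals its mean, and Syt4, first in controls, was at rank 8.

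Of 72 other exocytosis genes, 71 were in the table, 52 were tested, 9 fell and 10 rose. The shares, 17.3% and 19.2%, stand beside the same 11.8% and 20.6% of all genes, and the median log2 fold change was -0.13. The genes of lowest p that fell were Vamp4, a SNARE of the trans-Golgi network (by 1.60, adjusted p = 0.00424), Ica1, an autoantigen of islet cells tied to granule formation (by 0.61, adjusted p = 0.00784), Rab3gap1, a regulator of Rab3 (by 0.79, adjusted p = 0.0109), and Sytl5, a Rab27 effector (by 1.01, adjusted p = 0.0161; 0.0584 without control 1 and 0.0516 without mutants 2 and 3). Those that rose were Ppfia4, a liprin (3.31, adjusted p = 0.00224), Mlph, a Rab27 effector (1.63, adjusted p = 0.00276), Sytl2, another (1.90, adjusted p = 0.00326), and Syngr2, a synaptogyrin (1.25, adjusted p = 0.00326). Other Rab27 effectors, picked after their values were seen, were Sytl4 (granuphilin), which fell by 1.40 (adjusted p = 0.0249), and Sytl1, which rose by 1.43 (adjusted p = 0.00775). Sytl3 did not pass (-0.63, adjusted p = 0.160). Of the list's other synaptotagmins, also picked after their values were seen, Syt8 (1.65, adjusted p = 0.0398) and Syt12 (1.56, adjusted p = 0.00758) rose, Syt14 fell by 1.78 (adjusted p = 0.0196), and Syt16 did not pass (-1.11, adjusted p = 0.119). Without control 1, 4 of 53 tested fell and 6 rose, and without mutants 2 and 3, 11 of 53 fell and 6 rose.

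Markers of other cells were read beside these results. Of 12 neural and Schwann genes, whose cells express much of the same machinery, Chat was at 0 in every library, Sox10 had at most 9 counts in all, and the summed level was 57.9 to 112 CPM in controls and 1.35 to 45.2 in mutants. Macrophage genes summed to 39.5 to 71.1 and 8.76 to 95.9 CPM, endothelial genes to 47.3 to 144 and 5.26 to 80.2, stellate and fibroblast genes to 47.3 to 107 and 0.674 to 107, and ductal genes to 1854 to 7349 and 3629 to 6839. Mast cell and lymphocyte genes summed to 10.2 to 19.6 and 24.0 to 94.6 CPM, with Mcpt4, Cma1 and Fcer1a at 0 in every library. Of 9 ductal genes tested, 4 rose and 1 fell. Of 7 stellate and fibroblast genes 2 fell, and of 2 mast cell and lymphocyte genes 1 rose. No neural and Schwann, macrophage or endothelial gene passed the threshold. These counts stand beside 11.8% lower and 20.6% higher of all genes. The part of these other cells in the results was not tested.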

How the data were processed

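The authors deposited 1 table of raw counts per gene for 9 islet libraries, with no normalization; per the labels' protocols the RNA was polyA RNA made into libraries with a low-input kit. The submitters' processing notes name STAR, RSEM and DESeq2 among the tools and mm10 as the build, without saying which step made the deposited counts; no strand setting is named, and reads of overlapping genes cannot be told apart.

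Groups follow the sample titles. Counts were filtered with filterByExpr, scaled by TMM and fitted with edgeR 4.0.16 (glmQLFit, glmQLFTest; R 4.3.3), two-sided, mutant against control, with Benjamini-Hochberg adjustment over all 12402 genes tested and a threshold of 0.05. Standard errors were taken as the size of the log2 fold change over the root of its F statistic. CPM use the TMM-scaled library size, and log2 CPM and ratios a prior count of 2. Levels per kb use GENCODE M21 exon lengths (GRCm38). The 9 libraries hold 6092010 to 9163253 counts, and their number limits the precision. The fit was tested on simulated data. Alternatives used DESeq2 1.42.0, limma-voom 3.58.1 with quality weights, other filters and scalings, covariates and left-out libraries. No library was a copy of another (smallest chi-square per degree of freedom 17.0).

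Every listed gene found in the table could be named; values in every library are given for up to 3 genes of lowest p per role group, for both genes of a paralog pair and for genes that rose. Of the other exocytosis genes, up to 4 of lowest p in each direction are named. Further Rab27 effectors and synaptotagmins of that list are named outside this rule, picked after their values were seen. Members and lists were chosen with earlier results of these data known.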

Additional observations from a re-analysis of the deposited data

Results flagged for a closer look

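In 3 of 80 groups of libraries examined (40 genes, 2 groups each), 1 library stood far from the others on the log2 CPM scale by Dixon's criterion, which chance meets in about 1 of 20 groups. Stx3 was at 6.53 in control 2, against 5.62 to 5.70 in the other controls. Rims2 was at 3.30 in control 3, against 3.76 in each of the other controls. Rab3c was at 1.92 in control 3, against 2.34 to 2.37 in the other controls.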

How the results depend on the processing

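Against 14 genes lower and 4 higher, DESeq2 gave 25 lower and 3 higher, beside 20.8% and 20.5% of all genes. Limma-voom gave 26 lower and 6 higher, beside 2294 lower and 3009 higher of 12402 genes. With the hormone score as covariate 3 were lower and 3 higher, beside 1.36% and 7.15% of all genes. The acinar score left 0 lower and 0 higher, as it did among all 12402 genes. The machinery's median log2 fold changes with these scores were -0.18 and 0.71. Leaving out 1 library gave 6 (without control 1) to 23 (without mutant 2) lower, 9 without mutant 3, 3 to 4 higher, and a median of -1.84 to -1.27. Of the other exocytosis genes, 9 lower became 14 in DESeq2, 18 in limma-voom, 1 with the hormone score, 0 with the acinar score and 4 to 13 without 1 library. The 10 higher became 6 with the replicate block, 4 and 0 with the hormone and acinar scores, 6 without mutants 2 and 3, and 6 to 10 without 1 library. Relative to the endocrine reference, 0 lower became 2 without mutants 2 and 3, 4 in limma-voom and 0 without any 1 library, and 17 higher became 0 with the replicate block and 6 to 18 without 1 library. The cause was not tested.

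Called in all 9 fits without 1 library were Vamp2, Unc13a, Pclo, Rab27a, Rph3al and Ptprn2 (lower) and Stxbp2, Unc13b and Rab27b (higher). The differences in paralog log2 ratios without 1 library were -3.83 to -2.24 for Snap25 to Snap23, -0.51 to -0.15 for Stx1a to Stx3, -2.94 to -2.08 for Vamp2 to Vamp8, -2.38 to -1.41 for Rab3a to Rab3d, -4.71 to -3.80 for Rab27a to Rab27b, -4.37 to -3.38 for Unc13a to Unc13b, -1.07 to -0.41 for Syt7 to Syt11 and -1.53 to -0.45 for Ptprn to Ptprn2.

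The replicate numbers were not taken as pairs. Deviations of same-numbered libraries correlated at 0.09, -0.06, 0.22 and -0.03, and no control correlated best with its own number. The best correlations were themselves low, from 0.08 (control 2 with mutant 3) to 0.26 (control 1 with mutant 5), so these values cannot exclude pairing. With the replicate block, run without mutant 5, 10 of the machinery genes were lower and 3 higher. Of all 12324 genes tested there, 772 were lower and 1645 higher.

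With the acinar score as covariate, which group explains by 93.0%, these log2 fold changes reversed: Snap25 1.96, Snap23 -0.62, Stx1a 0.65, Stx2 1.0, Stx3 0.030, Vamp2 1.60, Vamp8 -1.42, Stxbp2 -0.22, Syt4 0.77, Syt5 1.49, Syt7 2.83, Syt9 3.06, Syt11 1.36, Syt13 2.18, Unc13a 0.39, Rims2 2.96, Cadps 2.87, Cadps2 -0.61, Bsn 1.79, Rab3a 1.81, Rab3b 0.75, Rab3c 0.55, Rab3d -0.035, Rab27a 0.67, Rph3al 0.022, Exph5 0.10, Cplx2 1.62, Ptprn 1.53, Ptprn2 0.35, Syp 2.99, Sv2a 2.15, Nsf 0.43, Napa 0.48 and Stxbp3a -0.94. In that acinar fit 0 of all 12402 genes passed, so these signs are poorly determined and are not read as changes of direction. With the hormone score these reversed: Stx2 0.11, Syt9 0.61, Rims2 0.22, Cadps 0.033, Rab3d -0.040 and Sv2a 0.15. Rab3d was also at -0.083 with DESeq2's scaling in edgeR, -0.084 in DESeq2, -0.013 in limma-voom, -0.048 with no filter, -0.050 without mutants 2 and 3 and -0.12 to 0.10 without 1 library. Vamp3 was at -0.0090 with DESeq2's scaling, -0.0091 in DESeq2 and -0.066 to 0.14 without 1 library.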
